A study of Homo sapiens with 6 samples.

Results

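The genes described here are 10 pluripotency genes that mark the H1 human embryonic stem cells from which the studied cells were made: POU5F1, NANOG, LIN28A, LIN28B, SALL4, PRDM14, DNMT3B, TDGF1 (CRIPTO in the gene table), KLF4 and DPPA4. They were taken by name from the RefSeq gene table of GRCh38, all 10 were found, and they stand among 20033 protein-coding genes on chromosomes 1 to 22, X and Y. A peak was assigned to a gene when it shared at least 1 bp with the gene body or the 5 kb on either side, called the window of the gene. The series maps MYT1L, a zinc-finger transcription factor of neurons, by CUT&RUN, in which an antibody directs a nuclease to a chromatin protein and the released DNA is sequenced. All 6 libraries came from H1 cells labelled wild type and day 30, and by their labels they differed only in antibody, which bound MYT1L in 4 libraries and was IgG, the negative control, in 2. The series' design names the cells as cortical interneurons obtained from stem cells, whereas the sample labels give embryonic stem cells as the cell type. Peak lists hold no RNA level, so neither the identity of the cells nor the activity of the 10 genes could be read from them. Nothing in the labels says whether the 4 MYT1L libraries came from separate differentiations, so the spread between them may be technical and p-values measure only that spread.

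Pluripotency rests on a small set of transcription factors, led by POU5F1 (OCT4) and NANOG, that keep one another and their targets active in the stem cell and are shut down when it differentiates. LIN28A and LIN28B are RNA-binding proteins that block maturation of the let-7 microRNAs, DNMT3B lays down new DNA methylation, and TDGF1 is a co-receptor for the ligand Nodal. MYT1L is known as a repressor that holds non-neuronal genes down in neurons.

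MYT1L peaks were found at 7 of the 10 genes, against 84.1% of all protein-coding genes, and a region shared by all 4 libraries, as 27.1% of all protein-coding genes had, lay only at LIN28B. A region is a set of MYT1L peaks joined by overlap. One that held peaks of at least 3 MYT1L libraries and no IgG peak lay at 4 genes, LIN28B, LIN28A, DNMT3B and KLF4. Over all protein-coding genes 48.0% had such a region, so the share among the 10 genes was near the background. SALL4 had peaks in 3 libraries that did not line up in a single place, NANOG and POU5F1 had a peak in 1 library each, and PRDM14, TDGF1 and DPPA4 had none. No IgG peak lay at any of the 10 genes, where 4.16% of all protein-coding genes had one.

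**Figure D1:**
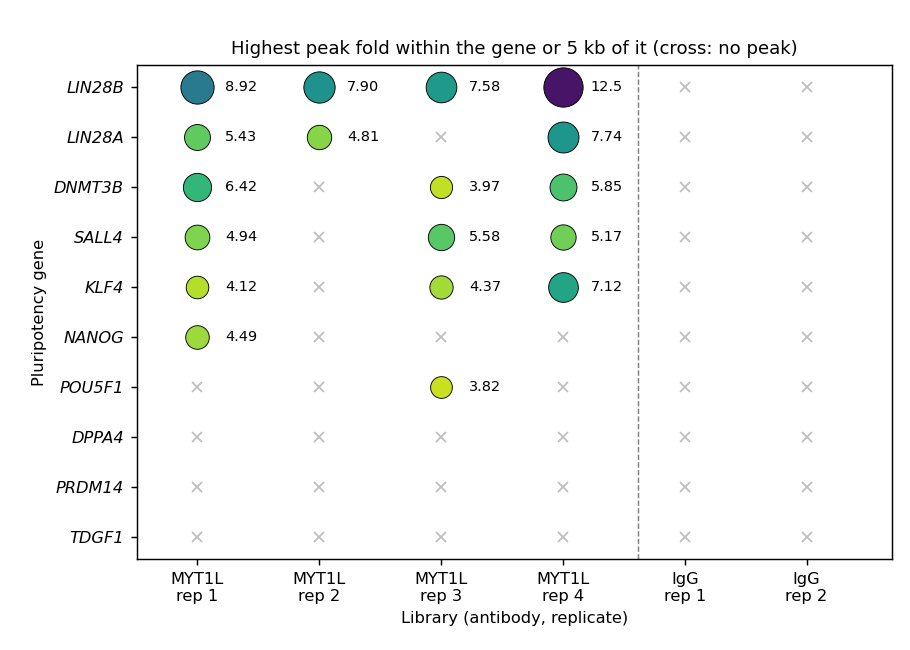
Highest fold of any peak in the window of each pluripotency gene (rows) in each library (columns); circle size and colour follow the fold, which is printed beside it, and a grey cross means no peak. LIN28B alone has a peak in every MYT1L library, with folds from 7.58 to 12.5, and both IgG columns are empty.

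The number of peaks in the 10 windows was 8, 3, 5 and 10 in MYT1L replicates 1 to 4 and 0 in both IgG libraries. The groups did not overlap, and the mean was 6.50 ± 3.11 (SD, n = 4) against 0 (n = 2). MYT1L replicate 2 was lowest and replicate 4 highest. Replicate 2 was also the shallowest MYT1L library, with a genome-wide background of 0.421 fragments at a position, against 1.18, 1.05 and 0.895 in replicates 1, 3 and 4 and 0.329 and 0.190 in the IgG libraries; the part of depth in the low count was not tested. These depths are estimates from the deposited fold and p of each peak, since read totals are not given in the sources used here. The density of peaks over all gene windows would place 5.90, 2.91, 4.26 and 7.11 peaks in windows of this total length in MYT1L replicates 1 to 4, and 0.0915 and 0.160 in IgG replicates 1 and 2, so lists as sparse as those of IgG would place less than 1 peak at so few genes.

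LIN28B, on chromosome 6 from 104937026 to 105083332, carried the best supported region of the list. It ran from 104940401 to 104941615, over 1215 bp, and lay across a start of LIN28B that RefSeq places at 104940965. In the gene table LIN28B begins 3939 bp before that start, at an end that no peak covered. The fold of the strongest peak of the region was 8.92, 7.90, 7.58 and 12.5 in MYT1L replicates 1 to 4, with no peak in IgG. Over all protein-coding genes 27.1% had a region in all 4 MYT1L libraries. This one was picked for holding all 4 and no IgG peak, which fixed in advance that the groups did not overlap. Of its folds, that of replicate 4 was highest. The mean fold was 9.22 ± 2.23 (SD, n = 4), above 96.6% of the 11091 regions of the genome that held at least 3 MYT1L libraries and no IgG peak, whose median was 6.29. The folds are the authors' values per peak. Mean folds are set against those of other regions of the same 4 lists, and regions of 3 libraries leave out a list. Median folds of the MYT1L lists ran from 4.92 to 5.56, so ranks of mean folds are approximate. Whole numbers of fragments recovered from fold and p gave 26, 14, 19 and 49 fragments at the strongest summit of the region in replicates 1 to 4. In replicate 2 the region was split into 2 peaks, of 14 and 12 fragments, and the peaks of replicates 1, 3 and 4 each overlapped both.

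The start of LIN28B that carried the region and the start 16.1 kb downstream that carried none are shown with their surroundings, 250 bases before and 50 after each start on the transcribed strand, from RefSeq on GRCh38.p14. CG dinucleotides are in capitals, since CG-rich starts were the ones most often occupied in these lists.
LIN28B upstream start, chr6:104940715-104941014, plus strand: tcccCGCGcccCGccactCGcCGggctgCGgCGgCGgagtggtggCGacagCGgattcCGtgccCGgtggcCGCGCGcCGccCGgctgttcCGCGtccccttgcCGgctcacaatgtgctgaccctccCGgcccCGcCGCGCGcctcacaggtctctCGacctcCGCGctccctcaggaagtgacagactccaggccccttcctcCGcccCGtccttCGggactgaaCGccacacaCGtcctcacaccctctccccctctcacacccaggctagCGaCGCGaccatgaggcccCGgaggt
LIN28B downstream start, chr6:104956857-104957156, plus strand: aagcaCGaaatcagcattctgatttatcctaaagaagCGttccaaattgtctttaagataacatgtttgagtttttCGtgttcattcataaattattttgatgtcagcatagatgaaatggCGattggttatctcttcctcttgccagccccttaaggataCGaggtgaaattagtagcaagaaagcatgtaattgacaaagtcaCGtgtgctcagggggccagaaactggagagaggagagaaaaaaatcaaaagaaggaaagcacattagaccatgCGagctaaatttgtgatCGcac
The upstream stretch held 37 CG dinucleotides at a G and C content of 73.0%, and its peaks covered all 300 bases in replicates 1 and 4, 204 in replicate 3 and 115 in replicate 2. The downstream stretch held 8 at 39.0%, and no MYT1L or IgG peak touched it. Neither holds the core sequence known for the MYT1 family, AAGTT, on either strand. Among 22198 promoter stretches of protein-coding genes cut in the same way, 30.05% hold AAGTT and 3.66% the longer form AAAGTTT, which contains it.

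The region also touched a second gene. The high end of the antisense gene LIN28B-AS1 lies 438 bp upstream of the occupied start of LIN28B, and the peak of replicate 4 extended into the body of LIN28B-AS1. With no strand in the peak lists, the region cannot be given to either gene alone. The summits of the strongest peaks lay 432, 386 and 430 bp downstream of the LIN28B start in replicates 1, 3 and 4. In replicate 2 the stronger of the pair lay at -264 bp, upstream of the start, and the weaker 259 bp downstream. A further region inside LIN28B, from 104991194 to 104991570, had peaks in replicates 1 and 4 (folds 6.41 and 4.75) and none in replicates 2 and 3.

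LIN28A, on chromosome 1 from 26410817 to 26429728, differed from LIN28B in where its peaks lay. Its region in 3 libraries, from 26432029 to 26432583, was 2.30 kb outside LIN28A. It lay across the low end of the neighbour DHDDS, which encodes a subunit of an enzyme of dolichol synthesis. It also lay across the high end of the noncoding gene LOC124903883. Summits were at most 72 bp from an end of one of these neighbours and at least 2447 bp from LIN28A. The fold was 5.43, 4.81 and 7.74 in MYT1L replicates 1, 2 and 4, with no peak in replicate 3 or in IgG. Counting only regions in the gene or nearer to it than to another gene, a choice made after the values were seen, left 3 of the 10 genes with a region in at least 3 libraries. Inside LIN28A only replicate 4 had peaks, 574 bp from the low end of the gene (fold 6.001) and 6.44 kb from it (fold 4.82).

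**Figure D2:**
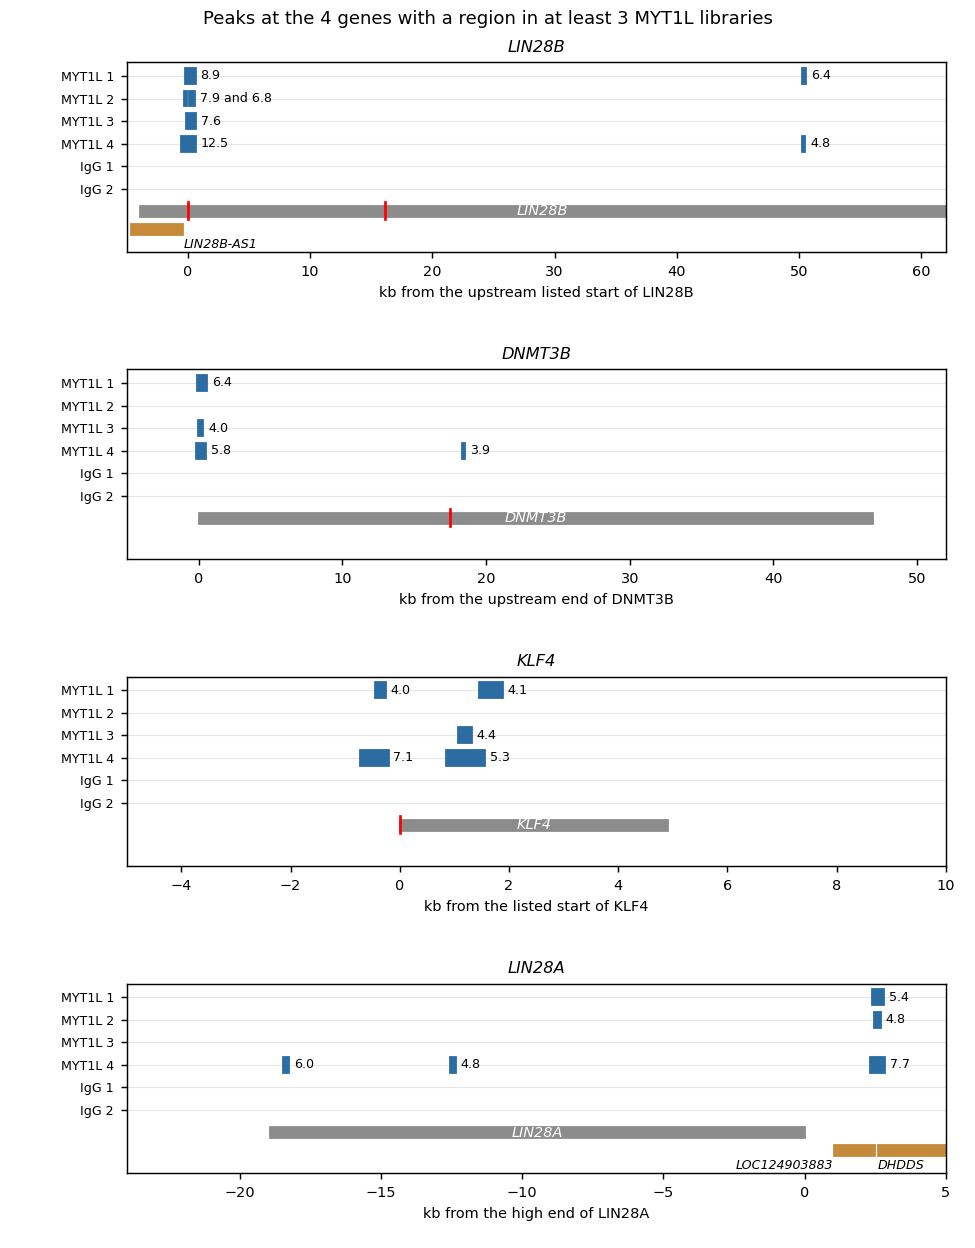
Peaks as blue bars, with their fold, at the 4 genes with a region in at least 3 MYT1L libraries; the x axis is the distance in kb from the point named under each panel, rows are libraries, the gene is grey, neighbouring genes are orange and red ticks are starts listed by RefSeq. The peaks stack at a listed start in LIN28B and at the upstream end of the gene in DNMT3B. RefSeq begins DNMT3B at that end, but the starts marked here include none there. Peaks lie on either side of the start in KLF4, and stack beyond the gene, at DHDDS, in LIN28A.

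DNMT3B, on chromosome 20 from 32762385 to 32809356, had its region at the upstream end of the gene, from 32762200 to 32762989. The fold was 6.42 in MYT1L replicate 1, 3.97 in replicate 3 and 5.85 in replicate 4, a mean of 5.41 ± 1.28 (SD, n = 3), with no peak in replicate 2 or in IgG. The 3 summits fell 135, 84 and 88 bp inside the gene. The peak of replicate 3 rested on 10 fragments and stood above only 9.67% of the peaks of its list by fold, and its −log10 q of 2.82 was close to the lowest of that list, 2.00. RefSeq also lists a start 17.5 kb further into the gene, which had no peak on it.
DNMT3B internal start, chr20:32779602-32779901, plus strand: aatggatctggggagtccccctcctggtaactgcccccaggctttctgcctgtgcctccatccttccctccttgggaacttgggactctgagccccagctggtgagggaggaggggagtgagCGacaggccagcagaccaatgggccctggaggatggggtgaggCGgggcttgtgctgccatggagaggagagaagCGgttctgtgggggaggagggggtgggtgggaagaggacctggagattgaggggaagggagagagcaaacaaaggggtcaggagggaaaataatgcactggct
This stretch holds 3 CG dinucleotides (capitals) and a single match to the core sequence, in the form AACTT of the opposite strand, at position -174 from the start. A peak of replicate 4 alone had its summit 890 bp downstream of this start, with a fold of 3.92.

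KLF4, a zinc-finger factor used in reprogramming cells to pluripotency, lies on chromosome 9 from 107484852 to 107489769 and is read from its high end. A region inside the gene, from 107487885 to 107488916, had folds of 4.12, 4.37 and 5.26 in MYT1L replicates 1, 3 and 4, a mean of 4.58 ± 0.601 (SD, n = 3), and a higher mean fold than only 6.54% of the regions with at least 3 libraries and no IgG peak. The peaks of replicates 1 and 3 did not touch, being 124 bp apart, and counted as 1 region only because the wider peak of replicate 4 overlapped both. Without replicate 4 no region at KLF4 was shared by libraries. Summits lay 1121 to 1802 bp downstream of the start. A second region just upstream of the start, from 107489975 to 107490497, was the stronger in replicate 4 (fold 7.12, 30 fragments), with a weaker peak in replicate 1 (fold 4.01) and none in replicates 2 and 3. The peak of replicate 4 covered 45 bases of the start's surroundings printed here, and that of replicate 1 began 7 bp beyond them.
KLF4 start, chr9:107489720-107490019, minus strand: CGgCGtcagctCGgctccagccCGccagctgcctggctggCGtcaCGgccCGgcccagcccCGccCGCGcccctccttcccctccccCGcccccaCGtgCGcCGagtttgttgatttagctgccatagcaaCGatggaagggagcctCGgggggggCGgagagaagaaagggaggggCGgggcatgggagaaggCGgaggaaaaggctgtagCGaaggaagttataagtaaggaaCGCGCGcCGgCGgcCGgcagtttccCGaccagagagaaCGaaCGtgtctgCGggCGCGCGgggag
The stretch holds 33 CG dinucleotides (capitals) and a single AAGTT, at position -32 from the start.

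The listed starts without a peak were poorer in CG. Those of NANOG and DPPA4, shown for comparison with LIN28B and KLF4, hold 5 CG dinucleotides each (capitals), at 46.7% and 45.3% G and C.
NANOG start, chr12:7789152-7789451, plus strand: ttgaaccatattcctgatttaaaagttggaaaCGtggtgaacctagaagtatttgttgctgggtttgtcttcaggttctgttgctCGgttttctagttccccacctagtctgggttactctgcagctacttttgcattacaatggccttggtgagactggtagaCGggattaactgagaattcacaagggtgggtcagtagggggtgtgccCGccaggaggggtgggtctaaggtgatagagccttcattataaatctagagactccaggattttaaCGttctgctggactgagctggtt
DPPA4 start, chr3:109337497-109337796, minus strand: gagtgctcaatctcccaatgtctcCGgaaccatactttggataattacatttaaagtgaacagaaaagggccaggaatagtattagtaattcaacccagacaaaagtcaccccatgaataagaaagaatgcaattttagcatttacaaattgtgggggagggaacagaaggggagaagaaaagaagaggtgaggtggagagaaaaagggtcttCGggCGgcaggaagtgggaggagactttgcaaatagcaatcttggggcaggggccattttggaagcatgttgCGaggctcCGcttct
NANOG holds AAGTT at position -228 from its start, and DPPA4 has no match on either strand. Starts were listed for 6 of the 10 genes, 8 stretches in all. The upstream end of DNMT3B, which carried a region of 3 libraries, is not among them. The low end of LIN28B in the gene table, which no peak covered, is not among them either. The CG content of these ends was not read, nor was that at POU5F1, LIN28A, SALL4 and PRDM14, so the comparison leaves these out. The ratio of CG dinucleotides observed to those its C and G content would give was 0.983 at the upstream LIN28B start and 0.934 at KLF4, the 2 stretches touched by a MYT1L peak. It was 0.716 at the downstream LIN28B start and 0.118 to 0.540 at the other 5, none of which had a peak. At KLF4 this peak was of replicate 4 alone. Over all stretches, 86.1% of those with a ratio of at least 0.6 were touched by a peak of at least 1 MYT1L library. Of those below 0.6 it was 13.5%. Under the stricter rule of peaks of at least 3 MYT1L libraries, which KLF4 would not meet, the shares were 48.9% and 2.98%. The IgG lists were skewed the same way, with IgG peaks on 2.51% and 0.143% of these stretches, so the skew is not particular to MYT1L. Stretches with AAGTT were touched by at least 3 MYT1L libraries less often than those without it (20.3% and 36.4%). This also held for IgG peaks (0.765% and 1.98%). They were also poorer in CG, with a median ratio of 0.549 against 0.780, and the part of CG content in this was not tested. These shares describe the lists, and promoters are not replicates.

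SALL4, a zinc-finger factor of stem cells on chromosome 20 from 51782331 to 51802521, had 1 peak in each of replicates 1, 3 and 4. Those of replicates 1 and 3 overlapped, with summits 1909 and 1957 bp inside the high end of the gene and folds of 4.94 and 5.58, whereas that of replicate 4 lay elsewhere in the gene, 8864 bp from its low end (fold 5.17). No place in SALL4 was therefore shared by more than 2 libraries.

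The core factors POU5F1 and NANOG were each reached by a single weak peak. At POU5F1, on chromosome 6 from 31164337 to 31170682, replicate 3 had a peak of fold 3.82 from 10 fragments, 841 bp inside the low end, and by fold it stood above 6.08% of the peaks of that list. At NANOG, on chromosome 12 from 7789402 to 7799146, replicate 1 had a peak of fold 4.49 from 9 fragments, 3104 bp downstream of the start. The other MYT1L libraries and both IgG libraries had none at either gene. In all protein-coding genes 11.8% had peaks in exactly 1 MYT1L library. A region with 3 libraries lay just outside the window of POU5F1, 5.66 kb from the gene, from 31158001 to 31158681. It lay across the low end of the neighbour TCF19, the end away from POU5F1, and near CCHCR1. A window of 10 kb in place of 5 kb therefore brought the count of genes with a region from 4 to 5. At DHDDS, 2.30 kb from LIN28A, the region lay inside the limit.

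PRDM14, a factor that supports the stem-cell state, TDGF1 and DPPA4, a chromatin-associated stem-cell protein, had no peak of any library in their windows, as had 15.9% of all protein-coding genes. The nearest MYT1L region of any support was 32.7 kb from PRDM14 (chromosome 8, 70051651 to 70071252), 80.0 kb from TDGF1 (chromosome 3, 46574535 to 46582457) and 61.2 kb from DPPA4 (chromosome 3, 109326144 to 109339636), and each of these regions came from 1 library. A missing peak says that no peak passed the authors' threshold at this depth; it does not show that MYT1L was absent.

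Window length moved with the counts. The windows of the 10 genes spanned 14.9 kb to 156 kb, with a median of 26.2 kb against 34.1 kb over all protein-coding genes. In windows under 20 kb, 1 of the 4 genes (KLF4) had a region in at least 3 libraries, against 30.9% of all genes of that size. In windows of 20 to 50 kb it was 1 of 4 (LIN28A), against 46.2%, and in those of 50 kb and over it was LIN28B and DNMT3B, both of 2, against 62.9%.

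The difference between antibodies was tested for each protein-coding gene by the number of peaks in its window, by exact permutation over the 15 splits of 6 libraries into 4 and 2. The smallest two-sided p this design allows is 0.133, so no gene could pass 0.05. LIN28B, with 2, 2, 1 and 2 peaks against 0 and 0, reached that smallest value (exact permutation p = 0.133, Benjamini-Hochberg adjusted p = 0.436 over all genes). It was the only one of the 10 with more peaks in every MYT1L library than in each IgG library, a pattern that 30.6% of all protein-coding genes shared. LIN28A, SALL4, DNMT3B and KLF4 each had exact permutation p = 0.400 (adjusted p = 0.730), with a higher count than IgG in 3 of 4 libraries.

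Depth limits what the empty IgG lists can show. Each MYT1L peak was reduced, by binomial thinning of its fragments, to the depth of an IgG library, and its chance of still passing that list's lowest p was computed. For the LIN28B start the chance at the depth of IgG replicate 1 was 0.770, 0.996, 0.576 and 0.9995 in MYT1L replicates 1 to 4. At the depth of IgG replicate 2, the shallower control, it was 0.408, 0.668, 0.251 and 0.920. At the other genes the highest chance of any peak was 0.832 (KLF4, upstream of the start, replicate 4) at the depth of IgG replicate 1, and it was 0.0137 for POU5F1 and 0.0740 for NANOG. Summed over the 10 genes, 1.72, 2.49, 0.845 and 4.16 peaks would be left in MYT1L replicates 1 to 4 at the depth of IgG replicate 1, and 0.898, 1.30, 0.367 and 2.52 at that of IgG replicate 2, against 0 observed in each. Peaks like those at the LIN28B start thus had a chance of 0.576 to 0.9995 at the depth of IgG replicate 1 and of 0.251 to 0.920 at that of IgG replicate 2. One like those at POU5F1 or NANOG would mostly have been missed.

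**Figure D3:**
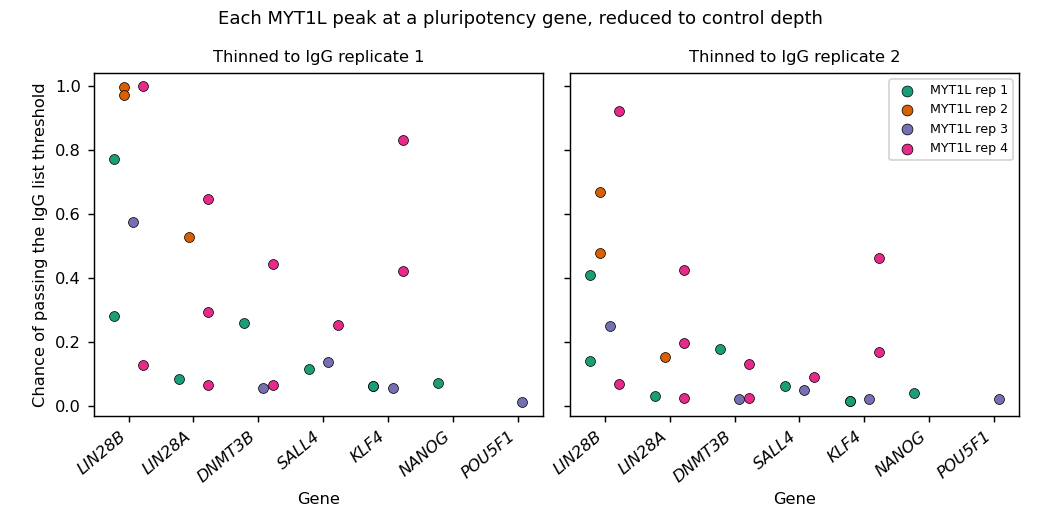
Chance (y axis, 0 to 1) that each MYT1L peak at a pluripotency gene (x axis) would still be called if its library had the depth of IgG replicate 1 (left) or IgG replicate 2 (right); each point is a peak, coloured by library. The LIN28B points reach 0.9995 and 0.920, and those of NANOG and POU5F1 lie below 0.08 in both panels.

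Other genes of pluripotency, 30 in number, had a region in at least 3 MYT1L libraries without IgG peak in 8 cases, 26.7% against the 48.0% of all protein-coding genes, and peaks in a median of 2 libraries, the same median as the 10 genes and below the 3 of all protein-coding genes. By support and then fold these were POLR3G, TERF1, KLF5, USP44, JARID2, SOX2, PODXL and EPCAM, the first 5 with a region in all 4 libraries. POLR3G, a subunit of RNA polymerase III enriched in stem cells, had folds of 11.2, 6.92, 5.25 and 11.7 in replicates 1 to 4, and TERF1, which binds telomere repeats, had 7.42, 5.56, 7.09 and 12.7. SOX2, the partner of POU5F1 in stem cells and also a factor of neural progenitors, had 5.496, 7.96, 6.15 and 5.54. DPPA2 and DPPA3, LEFTY2, GDF3 and KLF17 had no peak. DPPA2 forms a complex with DPPA4, and neither had any. None of the 30 had an IgG peak.

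Family relatives of the 10 genes were counted beside them. Of 19 such genes, 7 had a region of this kind (DNMT1, POU3F2, YBX1, POU3F1, KLF3, KLF6 and KLF7), or 36.8%, with a median of 3 libraries. DNMT1, the maintenance methyltransferase, had folds of 7.88, 4.91, 6.28 and 13.9, so it was reached in all 4 libraries where DNMT3B was reached in 3. DNMT3A had peaks in 3 libraries, as DNMT3B had, but no region in 3. POU3F2, a neural POU factor, had 6.01, 5.76, 6.53 and 6.80, where POU5F1 had 1 peak in 1 library. POU3F1 also had a region in all 4 libraries. POU3F3 had peaks in 3 libraries but no region in 3, and POU2F1 and POU3F4 had peaks in 1 library only, as POU5F1 had. SALL1 had peaks in 3 libraries and SALL2 and SALL3 in 2, none with a region in 3. Of 13 SOX genes of neural lineages, 7 (53.8%) had a region of this kind (SOX2, SOX21, SOX1, SOX6, SOX5, SOX11 and SOX9). No gene of the relatives or of the SOX list had an IgG peak. No difference between lists was tested, and the lists were not matched for window length. The median window was 26.7 kb for the other pluripotency genes, 31.4 kb for the relatives and 14.9 kb for the SOX genes. Over all protein-coding genes it was 34.1 kb. SOX5 and SOX6 have windows of 1043 and 782 kb, and SOX2 is also among the other pluripotency genes.

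**Figure D4:**
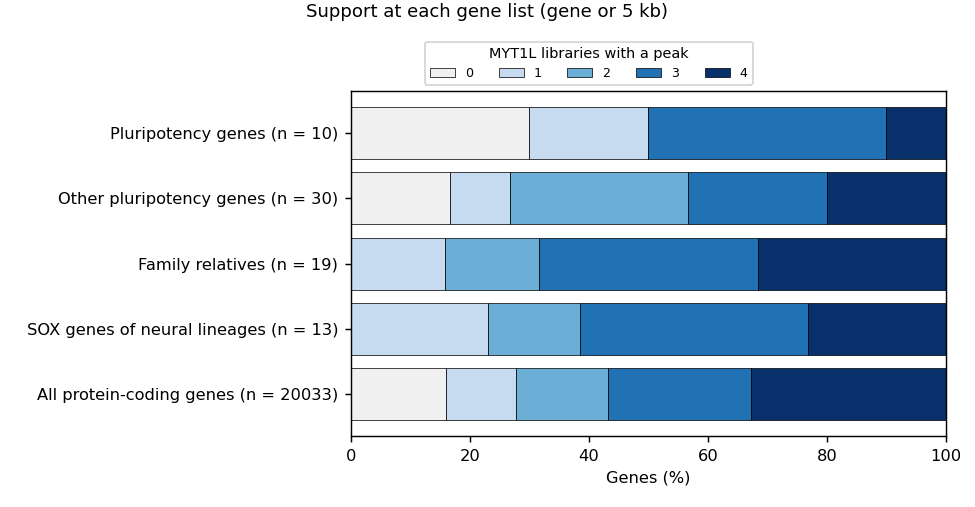
Share of genes (x axis, %) in each list by the number of MYT1L libraries, 0 to 4, with a peak in the window. The 10 pluripotency genes have 30% without any peak and 10% with all 4 libraries, against 15.9% and 32.8% of all protein-coding genes.

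The protein-coding genes whose folds over the 6 libraries were most like those of LIN28B, by Euclidean distance of log2(1 + highest fold), were CDKL2, GTF2A1 and SCYL3, at distances of 0.110 to 0.123. For DNMT3B they were SRD5A2, RBM24 and PAN3, for KLF4 USE1, WDR5 and FGFR1, and for LIN28A CASTOR2, DVL3 and ZNF804B.

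Copies of these genes elsewhere in the genome, mostly pseudogenes, could take or give reads. Of 39 copies matched by name, 7 had a MYT1L peak on them, 5 in 1 library and 2 (LIN28AP1 and KLF4P1) in 2, and no copy had an IgG peak. How reads with several possible positions were treated is not given in the sources used here, so the values at genes with copies are uncertain to that extent.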

How the data were processed

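The 6 deposited peak lists, 1 per CUT&RUN library, were read as given; groups and replicate numbers came from the sample titles. The submitters' processing notes name MACS2 and hg38, without versions, settings, aligner or control library. Peak names carry sample numbers 2 to 5 for MYT1L replicates 1 to 4; the titles were followed. Each peak has, per the narrowPeak layout of the authors' files, a fold ratio over local background, a p and a q given as −log10 values, and a score. On the 22 autosomes, X and Y a MYT1L list holds 12310 to 30086 peaks and an IgG list 976 or 998.

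Peaks sharing at least 1 bp were joined into regions; bedtools 2.31.1 gave the same regions and window counts. Coordinates count from 1. A whole number of fragments that gave the deposited fold and −log10 p within 0.0002 was found for 99.97% to 100% of peaks per list with a −log10 p up to 200, assuming MACS formulas; on 4982 simulated peaks all (100%) were recovered, and thinned expectations were 1.003 of those simulated. The lowest background shared by peaks gave the depth. Python 3.11.15 and scipy 1.17.1 were used. The genes and lists were chosen with earlier results of these data known, so no list was tested. All 10 genes were named whatever their values. Of other lists, genes with a region in at least 3 libraries, or with an IgG peak, were named. Genes without any peak, and the SALL, POU and DNMT relatives without such a region, were added after the values were seen. Gene strand and starts came from the RefSeq promoter table; exons, introns and UTRs were not assigned. Another of the gene lists is not reported here.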

Additional observations from a re-analysis of the deposited data

Results flagged for a closer look

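Of 12 groups of 4 MYT1L libraries examined, 4 had a library set apart by a gap as large as the whole range (gap over range 1), a flag that chance gives in about 1 of 20 groups and that counts this small raise easily. The number of peaks in MYT1L replicates 1 to 4 was 0, 0, 1 and 0 at POU5F1, 1, 0, 0 and 0 at NANOG, 2, 2, 1 and 2 at LIN28B, and 1, 0, 1 and 1 at SALL4.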

How the results depend on the processing

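The count of genes with a region in at least 3 MYT1L libraries and no IgG peak, 4 of 10, fell to 1, LIN28B, both for peaks whose −log10 q reached 5 and for a required support of all 4 libraries, and to 2 (LIN28A and LIN28B) where each MYT1L list was cut to the length of the shortest; it was 3, without LIN28A, for the gene body with or without 1 kb on either side, and 4 without either IgG library. Where a MYT1L library was left out, the requirement was eased to 2 of the other 3, and the count was then 4 to 5; under this eased requirement SALL4, whose region holds replicates 1 and 3, was counted without replicate 2 and without replicate 4, and KLF4 was lost without replicate 4. Where all 3 of the other libraries were required, the count of genes was 1, 3, 2 and 1 without MYT1L replicates 1 to 4, each time with LIN28B and, without replicate 2, DNMT3B and KLF4, or without replicate 3, LIN28A. The difference in mean peak number, 6.50, was 3 with lists of equal length, 2.30 and 1.27 with MYT1L peaks thinned to the depth of IgG replicates 1 and 2, and 5.33 to 7.67 without each library. The fold at KLF4, 4.58, was 5.26 for peaks whose −log10 q reached 5, where only replicate 4 was left, and 4.69 to 4.82 without replicate 3 or 1; without replicate 4 its peaks form no shared region and give no value. Without each library LIN28B ranged from 8.14 to 9.76, LIN28A from 5.12 to 6.59 and DNMT3B from 4.91 to 6.13. LIN28B was among the genes called in every setting in which regions were counted again. Thinning and the replicate block gave only the difference in mean peak number, so no gene was called again there. The share with an IgG peak was 0 of 10 in all 12 alternatives, of which only the window of 10 kb could have raised it. With no IgG peak in any window, leaving out an IgG library could likewise not change the counts. Groups share only the sample numbers 1 and 2, and nothing says that a number pairs libraries; with the replicate block over those numbers the mean difference in peaks was 5.5. Counting only regions nearer the gene than another gene, and the permutation tests without each library (0 genes called), were added after the data were seen.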
